A study of Mus musculus with 24 samples.

Results

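Interferon-stimulated genes are the genes that cells switch on when interferon is sensed. A set of 42 of them, found in the deposited gene table by symbol out of 45706 genes, was followed in RNA sequencing of primary fibroblasts cultured from mouse embryos (MEFs). The cells carried the label strain C57B1/6 and were either wild type (WT) or knockout (KO) for cGAS, the sensor of DNA in the cytosol that Mb21d1 encodes. Both genotypes were grown in 20% oxygen, and RNA of whole cultures was taken on days 33, 36 and 42, at 11, 12 and 14 passages. The labels name no embryo, litter or separate culture, so nothing says whether a genotype stands for more than 1 line of cells. They list 4 samples for each genotype and day, but the 4 differed by less than the sampling noise (chi-square per degree of freedom 0.832 to 0.843). Between sample 1 of WT day 33 and sample 1 of each other group it was 11.7 to 60.8, and other pairs of groups were not compared. The 4 samples of each genotype and day were summed and counted as 1 sample. This left 6 libraries, 3 per genotype, with 25651250 to 48717439 counts each. The days serve as the replicates of a genotype, so a p-value reflects nothing but how these libraries spread, and that spread may be technical. Levels are given in CPM, counts scaled to a common library total after each total was multiplied by a normalization factor (TMM). The factors were 0.9619, 0.9267 and 0.9969 in WT on days 33, 36 and 42, and 0.9943, 1.0453 and 1.0828 in KO. Relative to library totals alone, this raises CPM in WT and in KO on day 33, and lowers it in KO on days 36 and 42. Mb21d1 stood at 4.74, 4.08 and 4.82 CPM in WT on days 33, 36 and 42. In KO it stood at 0.239, 0 and 0.127, as labelled.

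Interferons bound to their receptors activate JAK kinases, and a factor that holds STAT2 and IRF9 then enters the nucleus and binds a short promoter element, the interferon-stimulated response element. cGAS makes a cyclic dinucleotide from cytosolic DNA, which activates STING and, through it, the kinase TBK1 and the factor IRF3, so that interferon genes are transcribed. In senescent fibroblasts, cytosolic chromatin fragments are known to engage this route, and the series title puts the comparison of WT and KO cells in that setting. The members fall into sensors, transcription factors, effectors that block viral RNA or protein, GTPases, antigen-processing genes and genes of less defined function.

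The response element could be looked for in the promoters. RefSeq promoter windows (build GRCm38.p6, 250 bases before to 50 after the start site) were at hand for 31 of the 42 members. The 10-letter motif GAAANNGAAA, read on both strands with overlapping matches counted, was found in 17 of the 31 (54.8%) and in 3.99% of the 27025 genes with a window. Entries were missing for Dhx58, Usp18, Oas2, Mx1, Mx2, Rtp4, Parp14, Ifi27, Ifi27l2a, Ifi27l2b and Iigp1. Stretches of 100 bases upstream of the start site are shown for 6 members, because the first 4 had their highest level in the WT library of day 42 and the last 2 in the KO library of day 33. Each is written 5′ to 3′ on the gene's own strand, with matches in capitals.
Isg15: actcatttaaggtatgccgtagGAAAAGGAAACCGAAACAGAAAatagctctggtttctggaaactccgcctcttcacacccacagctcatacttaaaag
Ifit1: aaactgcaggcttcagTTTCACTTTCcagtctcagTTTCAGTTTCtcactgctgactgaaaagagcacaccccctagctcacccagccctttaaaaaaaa
Ifit3: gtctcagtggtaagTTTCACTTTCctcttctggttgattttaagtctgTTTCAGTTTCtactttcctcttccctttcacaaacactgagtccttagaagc
Gbp3: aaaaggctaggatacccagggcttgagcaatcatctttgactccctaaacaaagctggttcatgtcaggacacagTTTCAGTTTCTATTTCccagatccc
Igtp: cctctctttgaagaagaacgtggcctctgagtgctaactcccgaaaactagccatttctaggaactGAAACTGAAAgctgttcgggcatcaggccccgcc
Bst2: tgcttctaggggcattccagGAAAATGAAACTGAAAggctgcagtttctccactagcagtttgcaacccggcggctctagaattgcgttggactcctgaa
They lie at chr4:156200819-156200918 (- strand), chr19:34640769-34640868 (+ strand), chr19:34583359-34583458 (+ strand), chr3:142559924-142560023 (+ strand), chr11:58199456-58199555 (+ strand) and chr8:71537523-71537622 (- strand). Isg15 holds 3 overlapping matches, Igtp 1 and each of the others 2 (not all with the same letters at NN). All 6 were chosen among the windows with a match. Of the 31 members, 14 had no match: Cmpk2, Ifi35, Ifi44, Ifi47, Ifit2, Irf7, Irf9, Lgals3bp, Oasl1, Oasl2, Psmb8, Psmb9, Tap1 and Xaf1. A match is a description of the sequence and shows no binding.

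The members were expressed at low to moderate levels in every library. Of the 42, 34 passed the expression filter, and 17233 of all genes did. Per gene length, in the deposited RPKM (reads scaled by gene length and library total) averaged over the libraries, the mitochondrial protein gene Ifi27 led at 10.8, before the secreted galectin ligand Lgals3bp at 9.57, the GTPase Irgm1 at 9.33 and the membrane tether Bst2 at 7.03. Ifit2 followed at 4.61, Ifi35 at 3.94, Stat2 at 3.04 and Ddx58 at 2.67. The first 3 of these differ by less than the spread between libraries, since Ifi27 alone ran from 1.36 to 31.8 RPKM. Ifi27l2b averaged 2.44 RPKM, and 26 of the 42 members lay below 1.

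The 8 members that did not pass were Oasl1, Oas1a, Oas1g, Oas2, Oas3, Mx1, Rsad2 and Iigp1, which include most of the oligoadenylate synthetases (enzymes that activate RNase L on double-stranded RNA), an antiviral dynamin-like GTPase and viperin. No library held more than 25 counts of any of them. Their counts summed to 42, 22 and 78 in WT on days 33, 36 and 42 and to 18, 14 and 20 in KO. These sums are not scaled to library size. On day 36 the WT library held 47092611 counts in all against 25651250 in KO, so the sums show no lower level in KO on that day. Oasl1 had 13 counts in WT on day 42, 1 on day 33 and 0 in the other 4 libraries. Mx2 and Psmb9 passed the filter but stayed under 1 CPM in all 6 libraries, which makes 10 low-count members. Oas1a and Oas1g are near-identical copies whose reads the counting could split, so their values are uncertain.

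Over the 3 days, 2 members fell in KO and 0 rose. Both belong to the Ifi27 (ISG12) family of small hydrophobic interferon-induced proteins. Of all 17233 genes tested, 8.72% were called either way (4.07% higher and 4.65% lower, edgeR quasi-likelihood test with Benjamini-Hochberg adjustment over all genes), and 5.88% of the 34 members were, so the members' share was near the background. At an unadjusted p below 0.05 stood 8 of 34 members, against 27.3% of genes. Among them only the GTPase Irgm1 was on the KO side, and DESeq2 called it higher while limma-voom called 0 members higher.

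Ifi27l2b (ENSMUSG00000021208, minus strand, chromosome 12, 103450898 to 103457223, GRCm38 by GENCODE vM21) measured 14.3, 13.7 and 3.04 CPM in WT on days 33, 36 and 42, against 0.449, 0.224 and 0.152 CPM in KO. All WT libraries lay above all KO libraries, and within each genotype the level was lowest on day 42. The log2 fold change of KO over WT was -5.23 ± 0.76 (SE, n = 3 per genotype; edgeR adjusted p = 0.0149). On summed counts, 1372 in WT and 27 in KO, WT was 40.4 times KO with a 95% exact interval of 27.7 to 61.5 for counting error alone. The call was lost without the WT library of day 33 (adjusted p = 0.0578) and without that of KO on day 36 (0.0871) or 42 (0.0781), with log2 fold changes of -4.92, -5.12 and -4.90.

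Ifi27l2a (ENSMUSG00000079017, minus strand, chromosome 12, 103442167 to 103443680) gave 69, 52 and 14 counts in WT, against 5, 2 and 1 in KO, which is 1.47, 1.19 and 0.401 CPM against 0.15, 0.0746 and 0.0254. Again the groups did not overlap, though the KO side rests on 8 counts in all. Its log2 fold change was -3.62 ± 0.71 (SE, n = 3 per genotype; edgeR adjusted p = 0.0324). The call ended when any of 4 libraries was left out (WT days 33 and 36, KO days 36 and 42), with adjusted p of 0.104, 0.0763, 0.138 and 0.119, while the log2 fold change stayed between -3.56 and -3.12.

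Ifi27, the third gene of the cluster (plus strand, 103434211 to 103440239), measured 36.1, 26.2 and 86.2 CPM in WT, against 22.8, 6.27 and 3.55 in KO. Here the WT level was highest on day 42 and the KO level lowest on that day, unlike the neighbouring copies, which were lowest on day 42 in both genotypes. The log2 fold change was -2.18 ± 0.78 (SE, n = 3 per genotype), which missed the threshold (edgeR adjusted p = 0.134). Without KO day 33 Ifi27 was called (log2 fold change -3.34, adjusted p = 0.035), and without WT day 42 the value was -1.51. WT was 1.58 times KO on day 33 (95% exact counting interval 1.45 to 1.73) and 24.3 times on day 42 (20.5 to 29.0).

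Macrophages can grow beside fibroblasts in such cultures and express interferon-induced genes, so their markers stand beside the Ifi27 family. The 17 markers measured summed to 167, 37.2 and 12.6 CPM in WT on days 33, 36 and 42 and to 77.4, 9.52 and 8.24 in KO. Of the 14 that passed the filter and were tested, 0 were called by edgeR (0 with an unadjusted p below 0.05). Their median log2 fold change was -1.24, so the absence of calls does not show equal levels in the genotypes. At 0 were Cd52 in WT on day 42, C1qc, Fcer1g, Aif1 and Cd52 in KO on day 36, and 9 markers in KO on day 42, among them Adgre1, Lyz2, C1qa, C1qb and Tyrobp. On each day the marker sum and Ifi27l2b were both lower in KO than in WT. Both also fell from day 33 to day 42 in each genotype. Across days, Ifi27l2b was at 3.04 CPM in WT on day 42, where the markers summed to 12.6. It was at 0.449 CPM in KO on day 33, where they summed to 77.4. In bulk RNA, fewer cells of a type and less RNA per cell cannot be told apart. The markers' part in the difference between genotypes was not tested. The 10 fibroblast markers summed to 21160 to 27710 CPM, most of it collagen and vimentin RNA. S100a4 was called lower in KO (log2 fold change -0.92 ± 0.13, SE; edgeR adjusted p = 0.0133), and it and 5 others (Pdgfra, Pdgfrb, Thy1, Dcn and Lum) had lower values in KO at an unadjusted p below 0.05. The median over the 10 was -0.85, and WT day 42 was the highest library for 6 of them. Of 7 endothelial markers 4 were tested and 0 called, though Kdr and Vwf had lower values in KO at an unadjusted p below 0.05, and the 7 summed to 15.6 CPM in WT and 7.53 in KO on day 42. The part of these markers in the members' differences was not tested.

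**Figure D1:**
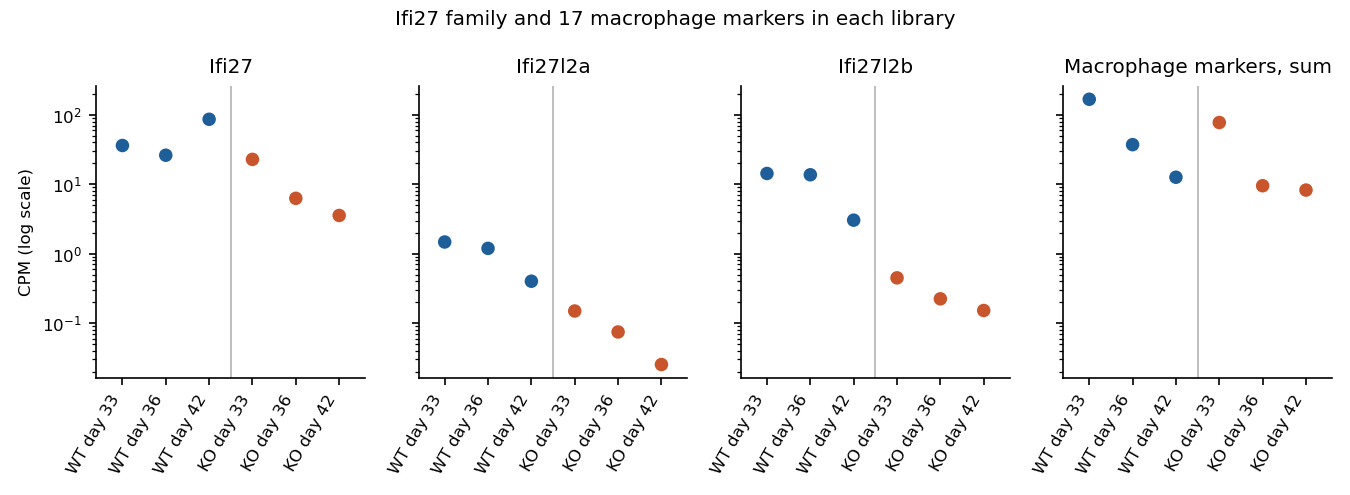
Level of the 3 Ifi27 family members and the sum of 17 macrophage markers in each of the 6 libraries, in CPM on a log axis (WT blue, KO orange, 1 point per library). Ifi27l2b lies between 3.04 and 14.3 CPM in the WT points and lies at or below 0.449 CPM in KO. The marker sum is lower in KO than in WT on each day. From day 33 to day 42 it falls from 167 to 12.6 CPM in WT and from 77.4 to 8.24 in KO.

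Irgm1, a GTPase that acts in autophagy and in defence against intracellular microbes, was the member with the largest value on the KO side. It measured 58.3, 87.9 and 67.7 CPM in WT, against 169, 119 and 110 in KO, so every KO library lay above every WT library. The log2 fold change was 0.90 ± 0.22 (SE, n = 3 per genotype; edgeR adjusted p = 0.0536). DESeq2 (adjusted p = 0.00141) and the fit scaled by library totals alone (0.0269) called it. A single transcript held 79.3 to 87.4% of the transcript counts of Irgm1 in the 6 libraries. KO was 2.90 times WT on day 33 (95% exact counting interval 2.77 to 3.03) and 1.63 times on day 42 (1.55 to 1.71).

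Lgals3bp, a secreted glycoprotein that binds galectins, measured 72.9, 47.9 and 108 CPM in WT, against 39.8, 24.6 and 17.9 in KO, without overlap. Its log2 fold change was -1.47 ± 0.39 (SE, n = 3 per genotype; edgeR adjusted p = 0.0667). DESeq2 (adjusted p = 0.000863) and the fit without KO day 33 (0.0395) called it, and without day 42 of both genotypes the value was -0.90. The RNA sensor gene Ifih1 (MDA5) measured 5.79, 5.46 and 9.40 CPM in WT, against 3.74, 4.25 and 4.13 in KO, also without overlap (log2 fold change -0.77 ± 0.24, SE; edgeR adjusted p = 0.0974; DESeq2 adjusted p = 0.042). Its value was -0.47 without WT day 42.

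Ddx58 (RIG-I), the sensor of RNA ends and the most abundant of the 3 sensors, measured 39.4, 34.8 and 45.0 CPM in WT, against 34.4, 28.0 and 32.4 in KO. The lowest WT library lay just above the highest KO library (log2 fold change -0.33 ± 0.13, SE; edgeR adjusted p = 0.161). Dhx58 (LGP2), which modulates the other sensors, ran from 0.568 to 1.78 CPM with overlapping groups. Parp14, an ADP-ribosyltransferase, measured 4.23, 2.41 and 4.76 CPM in WT, against 2.75, 2.09 and 2.18 in KO, where KO day 33 exceeded WT day 36 (log2 fold change -0.70 ± 0.29, SE; edgeR adjusted p = 0.179). Counting every member tested, all KO libraries lay below all WT libraries for 7 members (20.6%, against 17.1% of genes), the 7 being Ddx58, Ifih1, Lgals3bp, Mx2 and the Ifi27 family. Mx2 was close to a tie, at 0.299 CPM (14 counts) in WT on day 33 against 0.2986 (8 counts) in KO on day 36. Relative to library totals without the TMM factors, the groups overlapped for both Ddx58 and Mx2. The reverse held for Irgm1 alone (2.94%, against 17.2%).

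**Figure D2:**
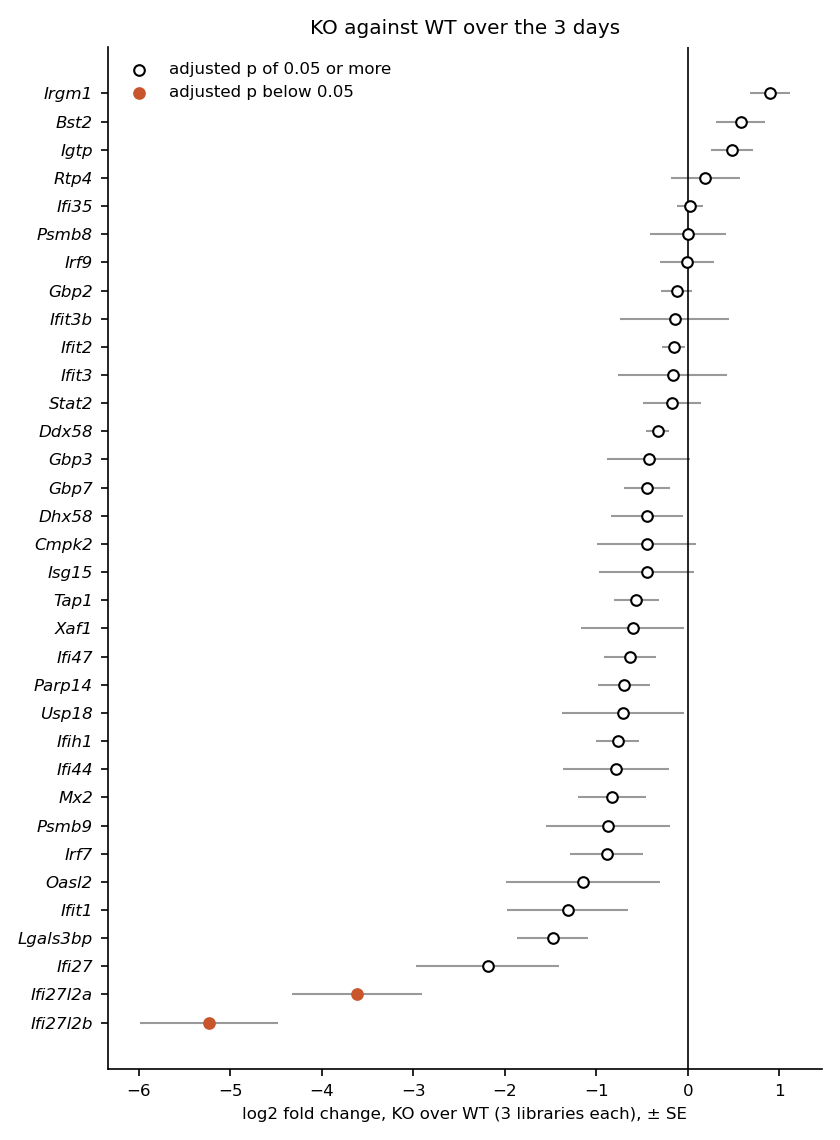
Fitted log2 fold change of KO over WT (x axis, ± SE, 3 libraries per genotype) for the 34 members tested, from the highest at the top to the lowest. Filled points mark the 2 members with an adjusted p below 0.05, Ifi27l2a (-3.62) and Ifi27l2b (-5.23), and Irgm1 (0.90) stands at the other end.

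The fitted value was negative for 28 of the 34 members, against 50.9% of genes, and the members' median was -0.45 against -0.01 for all genes tested. They describe the members that passed the filter, and they rest on 1 library. Without WT day 42, 16 members were negative and 18 positive, with a median of 0.06. The remaining comparisons therefore follow the members day by day. They set 1 library against 1 library, so no test was possible, and a member is counted where the libraries differ at least 2-fold and the higher reaches 5 CPM.

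In the WT library of day 42 the members stood high together. It held the highest of the 6 values for 26 of the 34 members tested (76.5%, against 25.2% of genes) and for 31 of all 42. Among members under 5 CPM in all libraries it was highest for 15 of 17, against 27.2% of such genes, so the pattern was not one of abundant members alone. KO day 33 was highest for 4 members (11.8%, against 10.3% of genes), namely Irgm1, Igtp, Bst2 and the immunoproteasome subunit Psmb8. From day 36 to day 42 the WT level was higher for 30 of 34 members (50.8% of genes) with a median log2 difference of 1.17, while over the same interval the KO level was higher for 10 of 34 (49.4% of genes) with a median of -0.21. Day 42 was higher than day 36 in WT and lower in KO for 21 of 34 members (61.8%, against 19.2% of genes). Macrophage markers summed to 12.6 CPM in the WT library of day 42, below the sum in 3 of the other libraries. The part of macrophages in this pattern was not tested. With 1 library per genotype and day, the day and the library cannot be told apart.

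**Figure D3:**
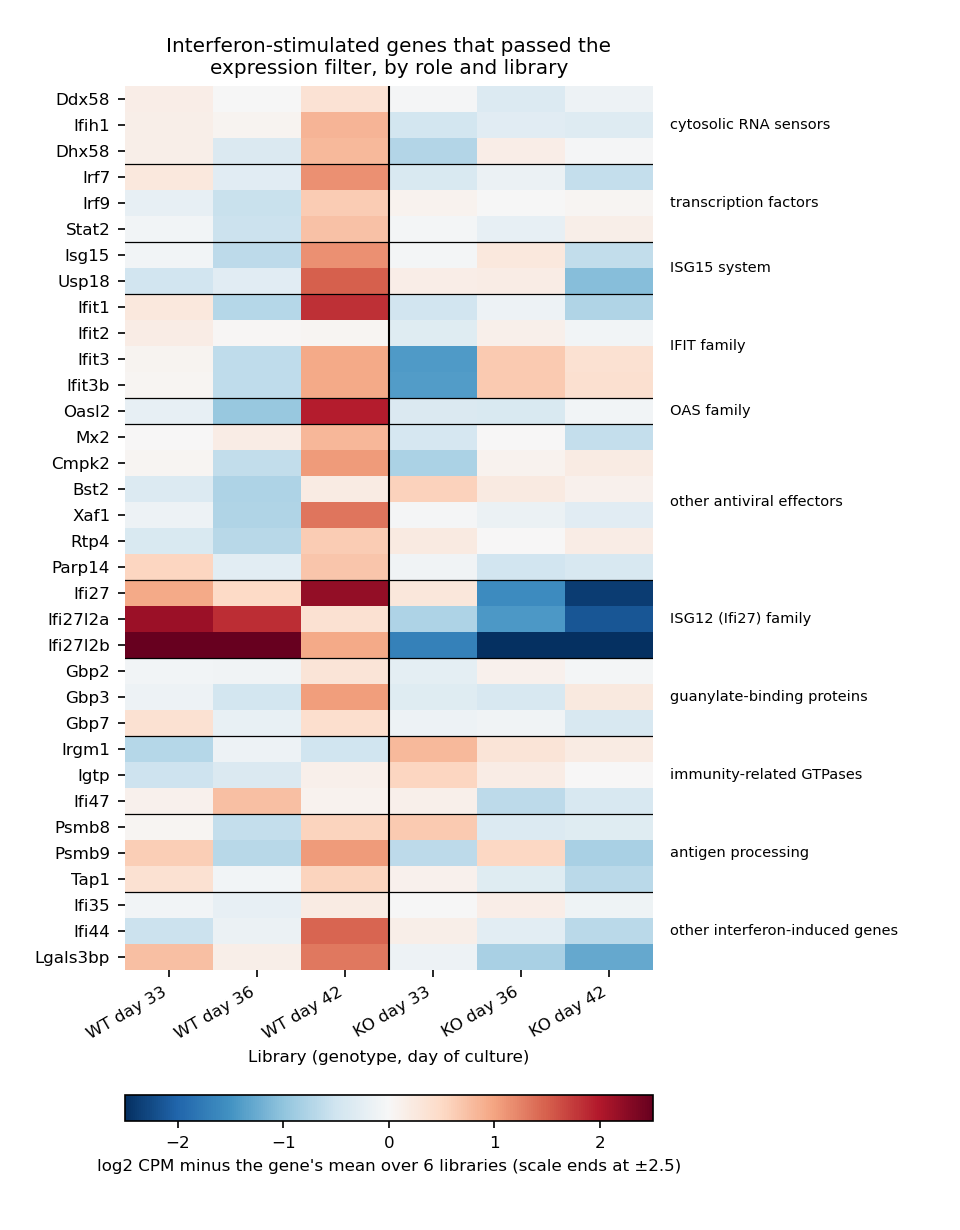
Each of the 34 members tested (rows, grouped by role) in the 6 libraries (columns), coloured by log2 CPM minus the gene's mean over the libraries, with colours ending at ±2.5. The WT day 42 column is the warmest for 26 of the 34 rows, and Ifi27l2a and Ifi27l2b are warm in all WT columns and cold in all KO columns.

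Isg15, the ubiquitin-like modifier, measured 1.03, 0.665 and 2.47 CPM in WT, against 1.05, 1.31 and 0.685 in KO. Its KO level lay within the WT range on every day, and KO exceeded WT on day 36 and fell short of it on day 42. On day 33 the ratio of KO to WT was 1.02 (95% exact counting interval 0.641 to 1.61), a difference within counting error. Oasl2, the most abundant member of the oligoadenylate synthetase family here, measured 0.342, 0.183 and 1.72 CPM in WT, against 0.299, 0.299 and 0.38 in KO. On day 42 WT held 3.60 times the Isg15 level of KO (95% exact counting interval 2.31 to 5.77) and 4.52 times the Oasl2 level (2.54 to 8.57).

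The following 4 members were singled out after their values were seen, as those with like differences. Ifit1, which binds viral RNA caps, measured 1.58, 0.78 and 4.82 CPM in WT, against 0.927, 1.19 and 0.761 in KO. Usp18, the protease that removes Isg15 and dampens the receptor, measured 0.598, 0.688 and 2.49 CPM in WT, against 0.957, 0.97 and 0.38 in KO. On day 42 the WT to KO ratio was 6.33 for Ifit1 (95% exact counting interval 4.27 to 9.68) and 6.56 for Usp18 (3.77 to 12.2). The same ratio was 4.59 for Ifi44 (3.1 to 6.99) and 3.25 for Xaf1 (2.15 to 5.02), and on days 33 and 36 all 4 genes lay between 0.573 and 1.58 CPM in both genotypes. None of the 4 passed the test over the 3 days, with edgeR adjusted p from 0.258 to 0.544.

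The transcription factors of the response stood high in the same library. Stat2 measured 23, 16.7 and 40.4 CPM in WT, against 23.4, 20.9 and 26.7 in KO, a log2 difference from day 36 to day 42 of 1.27 in WT and 0.35 in KO. Irf9, its partner, measured 10.8, 8.44 and 19.3 CPM in WT, against 13.2, 12.3 and 12.8 in KO. Irf7, which amplifies interferon production, gave 80, 50 and 111 counts in WT, against 36, 34 and 36 in KO. For Stat2 and Irf9 the KO libraries of days 33 and 36 lay above the WT libraries of those days, and below WT on day 42.

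**Figure D4:**
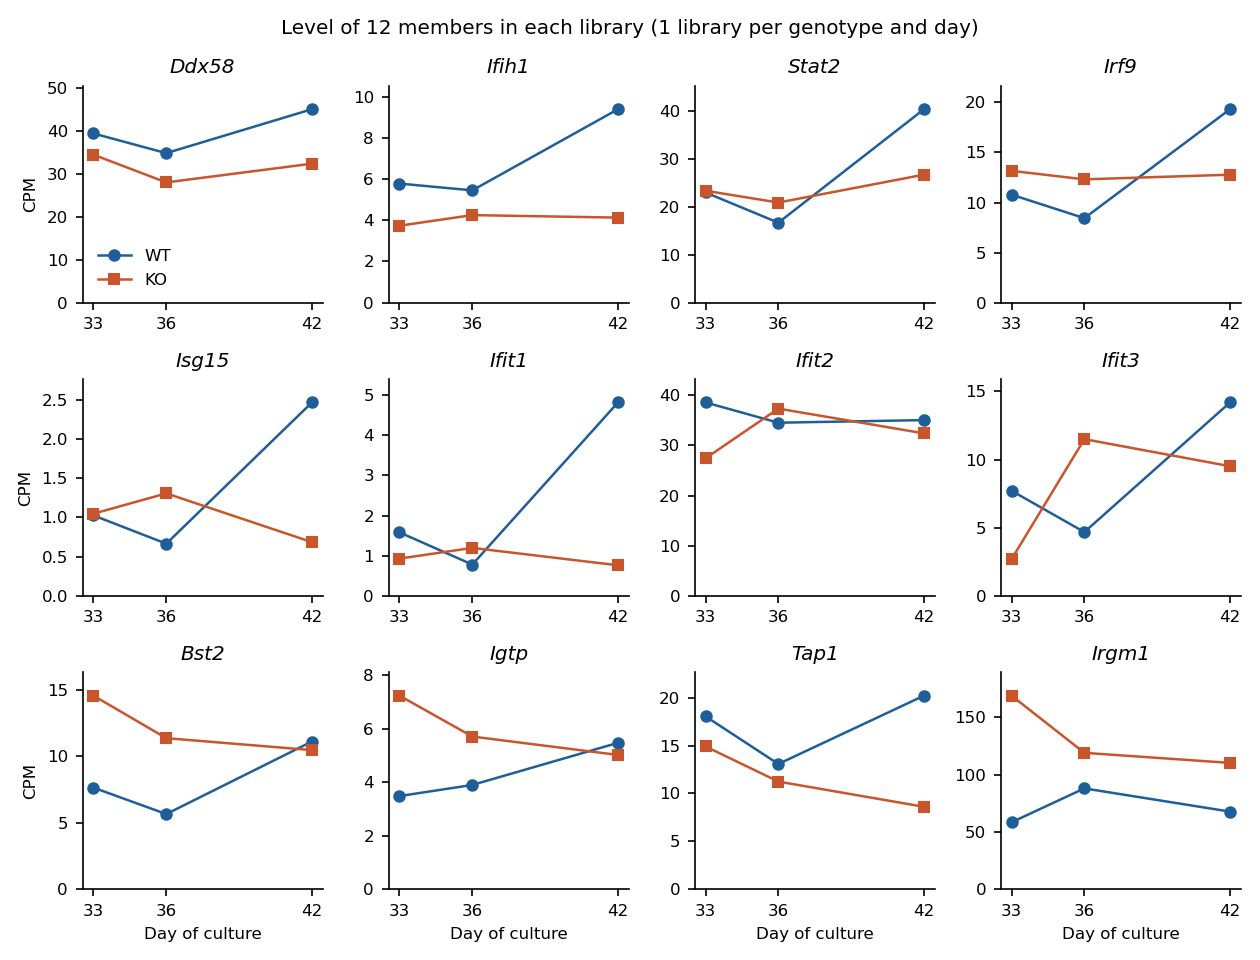
Level in CPM (y axis from 0) by day of culture for 12 members, with 1 library per genotype and day (WT circles, KO squares). Lines join the days of a genotype as a guide, and the WT line ends at its highest point on day 42 for 10 of the 12, the exceptions being Ifit2 (highest in WT on day 33) and Irgm1 (on day 36).

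Not every effector followed. Of those named next, the WT library of day 42 was the highest of the 6 for all but Ifit2 and Bst2. Ifit2, the most abundant of the IFIT family of RNA-binding proteins, measured 38.5, 34.5 and 35 CPM in WT, against 27.4, 37.3 and 32.4 in KO, with no library far from the rest. Ifit3 measured 7.71, 4.68 and 14.2 CPM in WT, against 2.69, 11.5 and 9.51 in KO, so the KO value was lower on day 33, higher on day 36 and lower on day 42. Its near-identical copy Ifit3b gave 7.52, 4.61 and 13.9 CPM against 2.69, 11.4 and 9.48, and reads shared by the pair make both values uncertain. Bst2 (tetherin), which holds budding virions at the cell surface, measured 7.62, 5.64 and 11.1 CPM in WT, against 14.5, 11.3 and 10.4 in KO. Its KO libraries lay above WT on days 33 and 36 and just below WT on day 42. The nucleotide kinase gene Cmpk2 (0.239 to 1 CPM) and the chaperone gene Rtp4 (0.78 to 2.04 CPM) were highest in WT on day 42, and Mx2 had at most 20 counts.

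Among the GTPases, Igtp (Irgm3) measured 3.48, 3.90 and 5.48 CPM in WT, against 7.24, 5.71 and 5.02 in KO. KO lay above WT on days 33 and 36, and on day 33 KO held 2.08 times the WT level (95% exact counting interval 1.70 to 2.55). On day 42 the ratio of KO to WT was 0.917 (0.748 to 1.125), a difference within counting error. Ifi47 (Irg47) measured 4.68, 7.34 and 4.64 CPM in WT, against 4.73, 2.72 and 3.27 in KO, a difference that was largest on day 36 (-1.41 on the log2 scale). Guanylate-binding proteins are large GTPases that coat pathogen vacuoles. Gbp2 measured 5.7, 5.66 and 7.48 CPM in WT, against 5.06, 6.46 and 5.81 in KO, with overlapping groups. Gbp3 reached 2.12 CPM in WT on day 42 and stayed at 0.711 to 1.19 in the other libraries, and Gbp7 ran from 0.887 to 1.61.

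Of the antigen-processing members, the peptide transporter gene Tap1 measured 18.0, 13.1 and 20.2 CPM in WT, against 14.9, 11.2 and 8.60 in KO. KO day 33 exceeded WT day 36, so the groups overlapped, and on day 42 WT held 2.35 times the KO level (95% exact counting interval 2.06 to 2.68). Psmb8 ran from 0.78 to 1.91 CPM and Psmb9 had at most 18 counts. Ifi35, an adaptor-like protein with a leucine zipper, was nearly level at 9.26 to 12.3 CPM in WT and 9.86 to 11.9 in KO.

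Counted by the fold rule, 4 members were lower in KO on day 42 (Ifi27, Ifih1, Lgals3bp and Tap1, out of 15 that reached 5 CPM, against 6.5% of genes) and 0 were higher (3.03%). With the minimum lowered to 1 CPM, 13 of 31 were lower, against 8.96% of genes. On day 33 Igtp and Irgm1 were higher (2 of 16, against 2.47%) and Ifi27l2b, Ifit3 and Ifit3b lower (4.1%). On day 36 Bst2, Ifit3 and Ifit3b were higher (3 of 17, against 2.96%) and Ifi27, Ifi27l2b and Ifi47 lower (4.67%). Ifi27 was counted as lower on days 36 and 42 and Ifi27l2b on days 33 and 36, its WT level on day 42 being 3.04 CPM. Ifit3 and Ifit3b stood on opposite sides on days 33 and 36. Counting the sign alone, KO exceeded WT for 13 of 34 members on day 33 (49.4% of genes), for 23 on day 36 (49.6%) and for 1, Irgm1, on day 42 (50%). The median log2 differences on these days were -0.23, 0.28 and -0.86.

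Within WT, day 42 against day 33 placed Ifi27 higher (1 of 16, against 3% of genes) and Ifi27l2b lower (2.07%). Within KO, Ifit3 and Ifit3b were higher (2 of 14, against 1.45%) and Ifi27 and Lgals3bp lower (2.61%). Set against day 36 instead, a choice made after the data were seen, WT day 42 was higher for Ifi27, Ifit3, Ifit3b, Irf9, Lgals3bp and Stat2 (6 of 17, against 4.37%) and lower for Ifi27l2b (2.48%). The same step in KO gave 0 members in either direction (0.414% and 0.491% of genes). These comparisons share libraries with those between genotypes, so they are the same values read in another order.

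**Figure D5:**
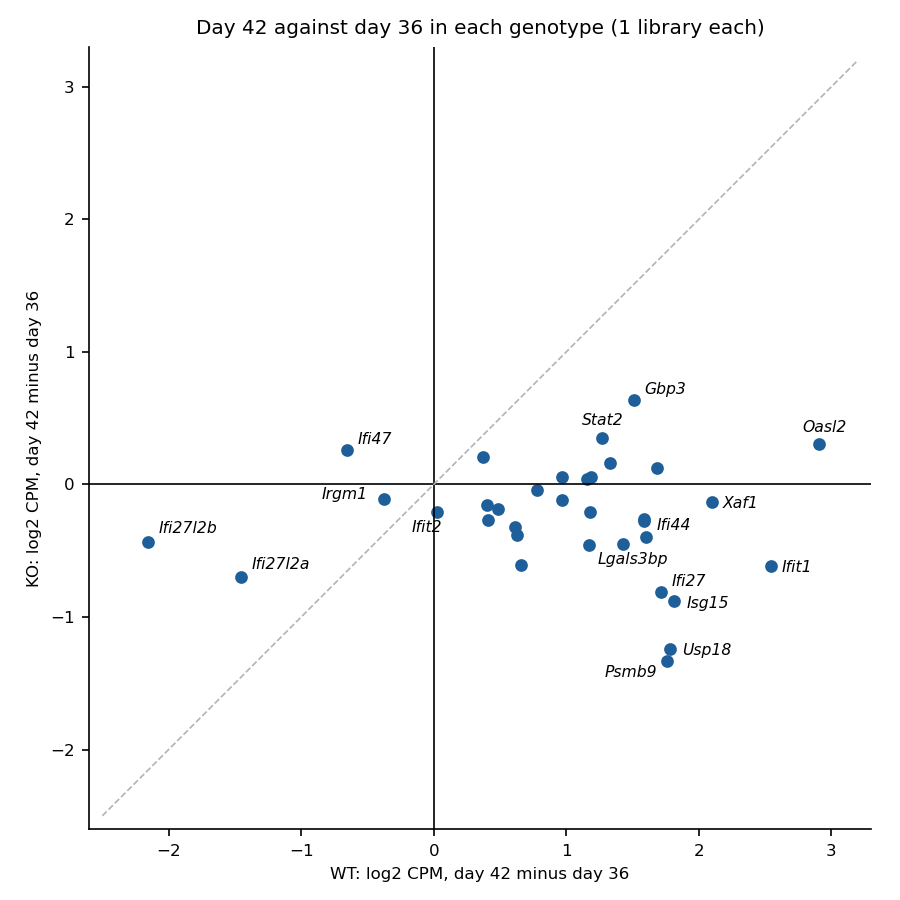
Difference in log2 CPM between day 42 and day 36 for the 34 members tested, in WT (x axis) and KO (y axis), 1 library each; the dashed line marks equal differences. Of the 34 points, 30 lie right of the vertical 0 line, and 21 of these lie below the horizontal one, with Ifit1 and Usp18 among them and Ifi27l2a and Ifi27l2b at the left.

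A test of whether the change per day differed between genotypes called 0 of 17233 genes and 0 members (0% of genes; edgeR, 2 residual degrees of freedom), with 7.74% of genes at an unadjusted p below 0.05. At that level were 5 members, all with the KO slope below the WT slope (4.76% of genes in that direction). The differences were -0.44 log2 units per day for Ifi27, -0.40 for Usp18, -0.33 for Ifi44, -0.20 for Lgals3bp and -0.13 for Igtp, with adjusted p from 0.586 to 0.627. The slope difference was negative for 30 of 34 members, against 49.8% of genes. WT day 42 was the highest library for 26 of these 34 members, and no slope was fitted without it. The slope differences are therefore not separate from the level of that library. A change per day shared by both genotypes was also called for 0 genes and 0 members (0%). At an unadjusted p below 0.05 this slope was positive for Cmpk2, Gbp3 and Oasl2 (3 of 34, against 7.4% of genes) and negative for Ifi27l2a and Ifi27l2b (2 of 34, against 7.31%), at -0.22 and -0.24 log2 units per day (adjusted p = 0.268 for each).

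Other genes of the pathway come from lists chosen by function. For the counts that follow, the share of all genes tested was 4.07% higher and 4.65% lower in KO. All 21 interferon genes measured, Ifnb1 included, had 0 counts in all 6 libraries, which allows up to 3 counts in each. Of 17 receptor and JAK-STAT genes, 0 rose and 1 fell, the interferon-gamma receptor Ifngr1 (log2 fold change -0.49 ± 0.11, SE; edgeR adjusted p = 0.0472). The next by p were Ifnar1 (0.28, adjusted p = 0.108) and Tyk2 (0.29, adjusted p = 0.145). Of 13 genes that sense nucleic acid or relay the signal, 0 rose and 4 fell, including Mb21d1, the gene knocked out. Besides Mb21d1 itself (-5.11 ± 0.62, SE; edgeR adjusted p = 0.0102) these were the ubiquitin ligase Trim25, which acts on RIG-I (-0.95 ± 0.18, adjusted p = 0.0308), the TBK1 adaptor Tank (-0.49 ± 0.11, adjusted p = 0.0443) and the mitochondrial adaptor Mavs (-0.37 ± 0.08, adjusted p = 0.0446).

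Of 52 further interferon-regulated genes, 38 passed the filter, 2 rose and 3 fell (against 4.07% and 4.65% of genes). The GTPases Tgtp1 and Tgtp2 were higher in KO (log2 fold changes 1.83 and 1.84, edgeR adjusted p = 0.0236 and 0.024), the nuclear-body gene Pml lower (-0.72, adjusted p = 0.0203), and Apol9a and Apol9b lower (-1.82 and -1.83, adjusted p = 0.0132 and 0.0133). Each of these pairs is near-identical in sequence, so 1 signal may be counted for both copies. WT day 42 was the highest library for 20 of the 38, against 25.2% of genes. Among 15 genes of MHC class I presentation, 0 rose and 1 fell, H2-T22 (-0.58 ± 0.09, SE; edgeR adjusted p = 0.0148), with Psme1 (0.41, adjusted p = 0.0719) and H2-T23 (-0.56, adjusted p = 0.146) next by p.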

How the data were processed

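The deposited gene table holds estimated counts, not normalized, and RPKM from the authors, per the file headers; a deposited transcript table holds estimated counts, of which only those for Irgm1 are used, and 24 more per-sample columns in it stayed out. Without roles, mm10, Bowtie2 2.2.1 and limma 3.18.13 appear in the submitters' processing notes. The counter, annotation and use of strand are not given in the sources used.

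The 4 columns per genotype and day were summed, rounded and filtered with filterByExpr (edgeR 4.0.16 in R 4.3.3; TMM factors 0.927 to 1.083; robust quasi-likelihood test across all genes; Benjamini-Hochberg threshold 0.05). SEs are the fold change over the root of F. Single-library differences are log2 CPM with prior count 2. Intervals are exact binomial and cover counting error only. DESeq2 1.42.0 and limma-voom (limma 3.58.1) were run as alternatives, as were other scalings, filters and fold rules, and leaving out libraries, days or columns. Positions are from GENCODE vM21 by gene ID.

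The members and lists were chosen with earlier results of these data known. Libraries are given in full for members called, with unadjusted p below 0.05, past the fold rule, or most abundant in their role; of other lists, genes called and up to 3 by p are named.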

Additional observations from a re-analysis of the deposited data

How the results depend on the processing

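The 2 members called between genotypes over the 3 days became 3 when scaled by library totals alone, 1 with a filter of at least 1 CPM in 3 libraries and 5 with DESeq2 (Ifih1, Irgm1 and Lgals3bp added). Leaving out 1 library gave 0 to 4, leaving out 1 column number of each group gave 1 to 2, and leaving out day 33 or day 36 of both genotypes gave 0 each. Treating the 24 columns as separate libraries gave 20 without and 20 with a replicate block, since it takes the noise of 1 library as replication. The shared numbers come from columns that differ by less than sampling noise, so they pair nothing. The 8 members with an unadjusted p below 0.05 kept their direction in all alternatives run.

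Over all genes, 1503 were called, 2855 with DESeq2, 24 to 1811 without 1 library, 3 to 539 without 1 day, and 11107 over 24 columns (11103 with the replicate block). Scaling by library totals moved the median of all genes from -0.007 to 0.107 and that of the members to -0.35, and the higher and lower calls from 701 and 802 to 1022 and 635.

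With 1.5-fold, 3-fold and 10 CPM, day 33 counted 9, 1 and 2 members (5 in the report). Day 36 counted 2 with 3-fold (6). Day 42 counted 7 with 1.5-fold, 2 with 3-fold and 13 with 1 CPM (4). WT day 42 against 33 counted 8, 1 and 12 under the same 3 settings (2), and KO counted 2 with 10 CPM (4). Depth limits the 10 low-count members, which held at most 25 counts in a library.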

Other observations

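The 3 Ifi27 family members lie side by side on chromosome 12, and the 4 other tested genes within 130 kb of them were read off after the values of the family were seen. Asb2, which encodes a subunit of a ubiquitin ligase, was at 0.769, 2.5 and 1.32 CPM in WT on days 33, 36 and 42, against 0.18, 0.0373 and 0 in KO (log2 fold change -4.37 ± 0.89, SE; edgeR adjusted p = 0.0362). The deubiquitinase gene Otub2 and the phosphatase regulator Ppp4r4 had log2 fold changes of -0.54 and -0.87 (adjusted p = 0.108 and 0.113). The RNA helicase gene Ddx24, which lies between Otub2 and Ifi27, was at 107.7 to 127 CPM in all libraries (-0.09, adjusted p = 0.562).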
